A study of Mus musculus with 9 samples.

Results

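The 6 genes described here, Hes7, Kctd12b, Apold1, Prrg4, Cytip and Selenbp1, are 6 of the 16398 genes measured. They were selected on their read counts and FPKM, because their mRNA was far lower after both of 2 siRNAs against Nus1 than in control cells, and because less is known of them than of other genes with falls of this size. All 6 were among the 11739 genes with enough counts to be tested. Since the levels against control chose them, those levels are given as a description, with no p-value.

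The cells were BV2, an immortalised mouse microglial line, and mRNA was sequenced 48 h after transfection began. One group of 3 libraries received the Nus1 siRNA 878, a second group of 3 received the Nus1 siRNA 644, and 3 further libraries, labelled NC and wild type, were the control. All groups were transfected with RNAiMAX for 24 h and then kept in fresh medium for 24 h. The protein of Nus1 pairs with DHDDS in the cis-prenyltransferase of dolichol synthesis, and dolichol carries the sugar chain used in N-glycosylation. Each library is called a biological replicate, with no word on separate transfections, and a p-value here measures the spread between these samples and nothing wider. The knockdown was transient and incomplete, in 1 cell line.

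The 6 genes belong to no single pathway. HES proteins are repressors of transcription that Notch signalling switches on, and Hes7 is known for its oscillation in the segmentation clock of the mouse embryo. KCTD12-type proteins are auxiliary subunits of the GABA-B receptor, PRRG proteins are membrane proteins whose Gla domain needs vitamin K for its carboxylation, and APOLD1 is a membrane protein encoded by an early response gene of endothelial cells. CYTIP is a scaffold of blood cells that binds cytohesins, the exchange factors of ARF GTPases that act on beta2 integrin adhesion, and SELENBP1 is a methanethiol oxidase that releases hydrogen sulfide.

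Library totals lay between 19362292 and 20224686 estimated counts. Levels are given in CPM, the count scaled to 1e6 of the library's TMM-adjusted total, and comparisons between genes use the authors' FPKM, which divides by gene length. Nus1 averaged 6.7 ± 2.58 CPM with 878, 3.85 ± 0.351 CPM with 644 and 51.6 ± 1.66 CPM in NC (SD, n = 3 each). Lcn2 and Slc22a17, named in the series title, were at 17.8, 29.1 and 0.273 CPM (Lcn2) and at 0.304, 0.519 and 0.194 CPM (Slc22a17, under the count filter) in 878, 644 and NC. Markers of microglia and macrophages, 20 genes that were all tested, summed to 4255 to 5475 CPM with 878, 4967 to 5344 CPM with 644 and 4454 to 4928 CPM in NC. Markers of neurons, astrocytes and oligodendrocytes summed to at most 6.62 CPM in any library, and those of fibroblasts and epithelium to at most 0.682 CPM. In bulk RNA, fewer cells that express a gene and less of its mRNA per cell cannot be told apart.

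Hes7 (gene 84653, chromosome 11, 69118906 to 69124054, plus strand) kept the smallest share of its NC level with 878 among the 6 genes. It measured 0.924, 1.19 and 0.956 CPM with 878, 1.36, 0.939 and 1.14 CPM with 644, and 7.01, 9.87 and 7.75 CPM in NC. The 6 knockdown libraries were alike and each lay below all NC libraries. These levels rested on 18 to 21 counts with 878, 19 to 26 with 644 and 146 to 201 in NC. The log2 fold change was -3.00 with 878 (SE 0.204) and -2.84 with 644 (SE 0.2), which left 12.5% and 14% of the NC mean.

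Apold1 (gene 381823, chromosome 6, 134982001 to 134986836, plus strand) measured 1.9, 1.86 and 1.26 CPM with 878, 1.47, 1.38 and 1.34 CPM with 644, and 10, 9.28 and 7.7 CPM in NC. All knockdown libraries lay far below the lowest NC library, and within 878 replicate 3 was the low one. Its log2 fold change was -2.43 with 878 (SE 0.182) and -2.68 with 644 (SE 0.185).

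Kctd12b (gene 207474, chromosome X, 153685154 to 153696386, minus strand) measured 1.13, 1.19 and 1.06 CPM with 878, 0.63, 1.14 and 1.14 CPM with 644, and 6.53, 6.19 and 7.99 CPM in NC. The 878 libraries were close together, and 644 replicate 1, with 12 counts, was the lowest library. Its log2 fold change was -2.61 with 878 (SE 0.213) and -2.82 with 644 (SE 0.216). Per length it was the least abundant of the 6 genes in every group, at 0.23 FPKM with 878, 0.207 FPKM with 644 and 1.5 FPKM in NC.

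Prrg4 (gene 228413, chromosome 2, 104830741 to 104849872, minus strand) measured 1.49, 0.452 and 2.26 CPM with 878, 0.892, 1.83 and 0.827 CPM with 644, and 6.38, 5.3 and 10.3 CPM in NC. It was the most uneven of the 6 genes, with 8 counts in 878 replicate 2 and 45 in 878 replicate 3, yet the knockdown and NC libraries did not overlap. Its log2 fold change was -2.36 with 878 (SE 0.477) and -2.62 with 644 (SE 0.487), with larger standard errors than any other of the 6.

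Cytip (gene 227929, chromosome 2, 58129139 to 58195549) measured 13.1, 12.8 and 13.4 CPM with 878, 11.2, 10.3 and 11 CPM with 644, and 61.7, 65.5 and 65.8 CPM in NC. All 3 groups were tight, and each 878 library lay above each 644 library. Its log2 fold change was -2.30 with 878 (SE 0.082) and -2.57 with 644 (SE 0.0831), which left 20.4% and 16.8% of the NC mean. The deposited table places Cytip on the plus strand and RefSeq of GRCm38.p6 on the minus strand.

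Selenbp1 (gene 20341, chromosome 3, 94929481 to 94944758, plus strand) measured 14, 15.3 and 9.86 CPM with 878, 13.3, 9.93 and 9.82 CPM with 644, and 56.6, 59.3 and 50 CPM in NC. The 878 and 644 libraries overlapped and all lay far below NC. Its log2 fold change was -2.09 with 878 (SE 0.183) and -2.33 with 644 (SE 0.185). Of 1663 stretches of 50 bases in its longest GENCODE transcript, 869 (52.3%) also occur in its paralog Selenbp2. Reads of the pair could thus be split or shared by the counting. The 2 genes summed to 15.8, 18.1 and 11.6 CPM with 878, 14.2, 12.3 and 12.3 CPM with 644, and 61.9, 63.5 and 54.3 CPM in NC, so the sum was also at 25.3% and 21.5% of NC. The other 5 genes shared at most 0.455% of such stretches with another gene.

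**Figure D1:**
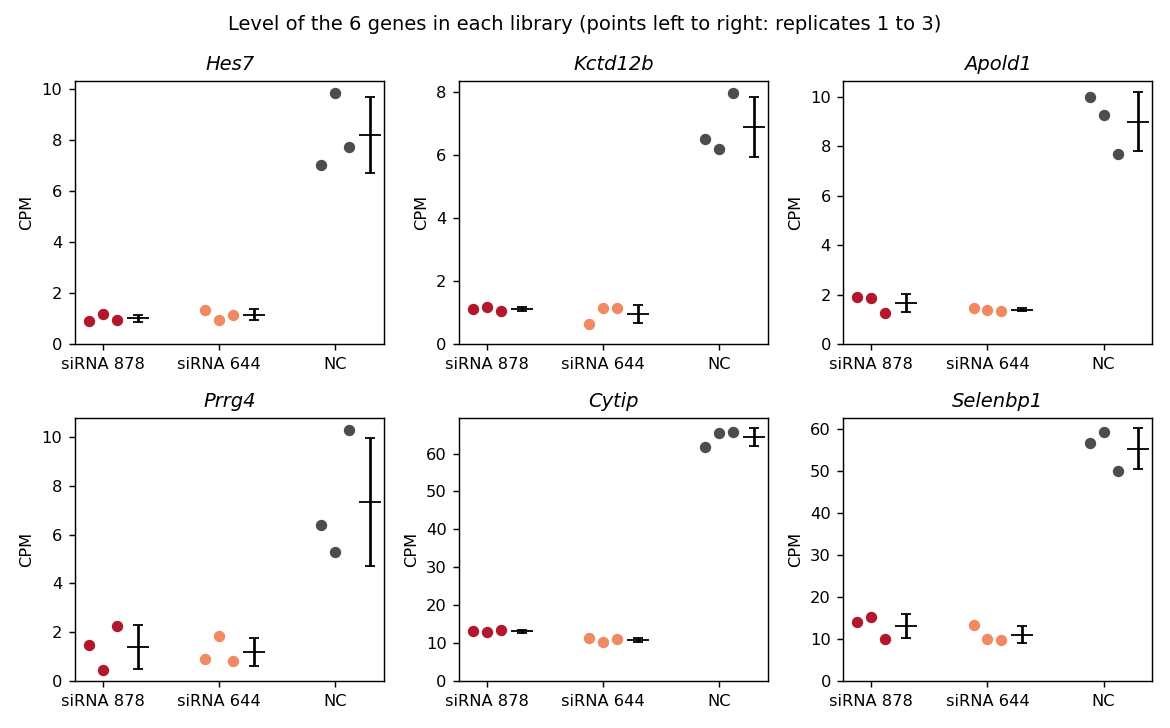
Level of each of the 6 genes in CPM (vertical axis, from 0) in the 3 libraries of siRNA 878, siRNA 644 and NC (horizontal axis). Points are libraries, and the bar beside them is the mean with its SD (n = 3). In each panel all 6 knockdown libraries lie below the lowest NC library, and Prrg4 has the widest scatter.

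For all 6 genes every knockdown library lay below every NC library, which held for 18.1% of tested genes. A log2 fold change of -2 or below with both siRNAs, as all 6 had, was reached by 24 genes (0.204% of those tested), and both numbers follow from how the genes were picked. Genes called lower with both siRNAs were ordered by the smaller of the 2 falls. Among all of them, Hes7 was 4th, Kctd12b 6th, Apold1 8th, Prrg4 9th, Cytip 11th and Selenbp1 17th. The order was then limited to genes of at least 1 average log2 CPM, with clone and predicted-gene names left out. In this limited order Hes7 was 3rd, Kctd12b 5th, Apold1 6th, Prrg4 7th, Cytip 9th and Selenbp1 10th. Just inside, Selenbp1 was at -2.09 and -2.33 with 878 and 644, and just outside, Ly6a was at -2.96 and -2.08 and Acod1 at -2.26 and -2.08. The other 4 of the first 10 were Tnfrsf9, Nus1, Cx3cr1 and Ccl12. In the authors' deposited table the log2 fold changes of the 6 genes lay between -3.01 and -2.10 with 878 and between -2.87 and -2.34 with 644.

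Per length the 6 genes spanned a wide range of levels. In NC, Selenbp1 at 34.8 FPKM and Cytip at 27.2 FPKM ranked at percentiles 77.6 and 72.3 of the tested genes, while Hes7 at 8.08 FPKM was at percentile 41.9. Apold1 at 2.86 FPKM, Prrg4 at 2.8 FPKM and Kctd12b at 1.5 FPKM were at percentiles 23, 22.7 and 16.3. With 878 the percentiles were 43 for Selenbp1, 35.4 for Cytip, 12.5 for Hes7, 8.92 for Prrg4, 8.69 for Apold1 and 4.45 for Kctd12b, and with 644 they ran from 39.4 for Selenbp1 down to 3.22 for Kctd12b. Apold1 and Prrg4 were neighbours in this order that did not differ beyond their spread in any group. The transcripts shared no common composition: GC content ran from 38.9% in Kctd12b, at percentile 3.37 of tested genes, to 59.4% in Hes7, at percentile 94.6, and length from percentile 14.8 in Selenbp1 to 86.6 in Cytip.

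The difference between the siRNAs was not used to pick the genes, although large falls with both leave it less room. None of the 6 genes was called between 878 and 644 (edgeR quasi-likelihood test, p adjusted by Benjamini-Hochberg, 0.147 to 0.899), where 1.51% of all tested genes were. At an unadjusted p under 0.05 the count was 1 of 6, against 15.1% of tested genes, and DESeq2 also called 0 of 6. Cytip was that gene: it was higher with 878 than with 644 by 0.27 on the log2 scale (95% interval 0.09 to 0.46, edgeR unadjusted p = 0.00884, adjusted p = 0.147). It was also the only one of the 6 whose 878 and 644 libraries did not overlap, as was the case for 18.6% of tested genes. Without 878 replicate 2, Cytip was called, at 0.30 (edgeR adjusted p = 0.0402), but so were 2072 of 11856 genes (17.5%).

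The intervals of the other genes bound how far the siRNAs could differ. For Hes7 the log2 difference was -0.17 (95% interval -0.71 to 0.37), for Kctd12b 0.21 (-0.36 to 0.78) and for Apold1 0.25 (-0.21 to 0.72). For Selenbp1 it was 0.24 (-0.18 to 0.66). For Prrg4 the interval was the widest, from -1.0 to 1.51. Each of these intervals includes 0, so the direction could not be read for any of these genes. Of the 6, 5 had a higher estimate with 878, all but Hes7, against 53.0% of tested genes. Nus1 itself was at 0.80 between the siRNAs and was not called (edgeR adjusted p = 0.18), but it was without 878 replicate 2, at 1.10 (adjusted p = 0.00112).

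**Figure D2:**
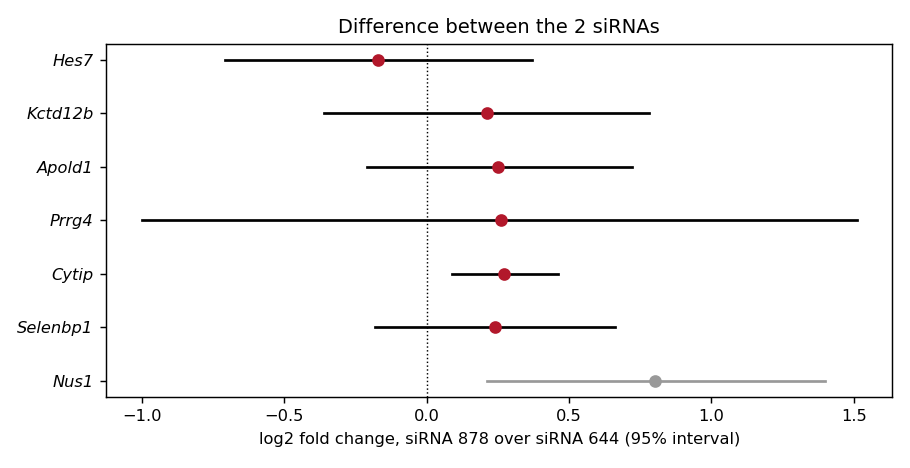
Log2 fold change of siRNA 878 over siRNA 644 (horizontal axis) for the 6 genes and, in grey, Nus1. Points are edgeR estimates from 3 libraries per group and lines their 95% intervals. The interval of Cytip, 0.09 to 0.46, is the narrowest, and that of Prrg4, -1.0 to 1.51, the widest.

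The 6 genes differed in how far replicates scattered. The pooled SD of log2 CPM within groups was 0.0513 for Cytip, at percentile 3 of 2300 tested genes of like level, and 0.764 for Prrg4, at percentile 98.7 of 624. Hes7, Kctd12b, Apold1 and Selenbp1 lay between, at 0.228, 0.28, 0.216 and 0.249 (percentiles 42.7, 59.3, 39.4 and 69.3). The library farthest from its group for Prrg4 was 878 replicate 2, at -1.21 on the log2 scale. Prrg1, the paralog of Prrg4, was low in the same library, at -1.19, and so was Nus1, at -0.74. Prrg4 was lowest in the 878 library that also had the least Nus1 mRNA. Hes7 (0.20), Apold1 (0.17) and Selenbp1 (0.25) were above their group mean there. Other genes were low there too, such as Qser1, at 23.3 CPM against 46.3 and 54.1 CPM in 878 replicates 1 and 3. In the 644 libraries Nus1 was at 3.46 to 4.15 CPM, near its 3.73 CPM in 878 replicate 2. With 644 Prrg4 was at 0.827 to 1.83 CPM, against 0.452 CPM in 878 replicate 2. The part of the Nus1 level in the Prrg4 values was not tested. Offsets for GC content and length were added after seeing the data. They are set against the mean of all 9 libraries, unlike the deviations above, which are from group means. In 878 replicate 2 they were -0.14 for Prrg4 and -0.12 for Apold1. They were larger there for the other 4, at 0.42 for Hes7, 0.34 for Selenbp1, -0.49 for Kctd12b and -0.47 for Cytip.

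**Figure D3:**
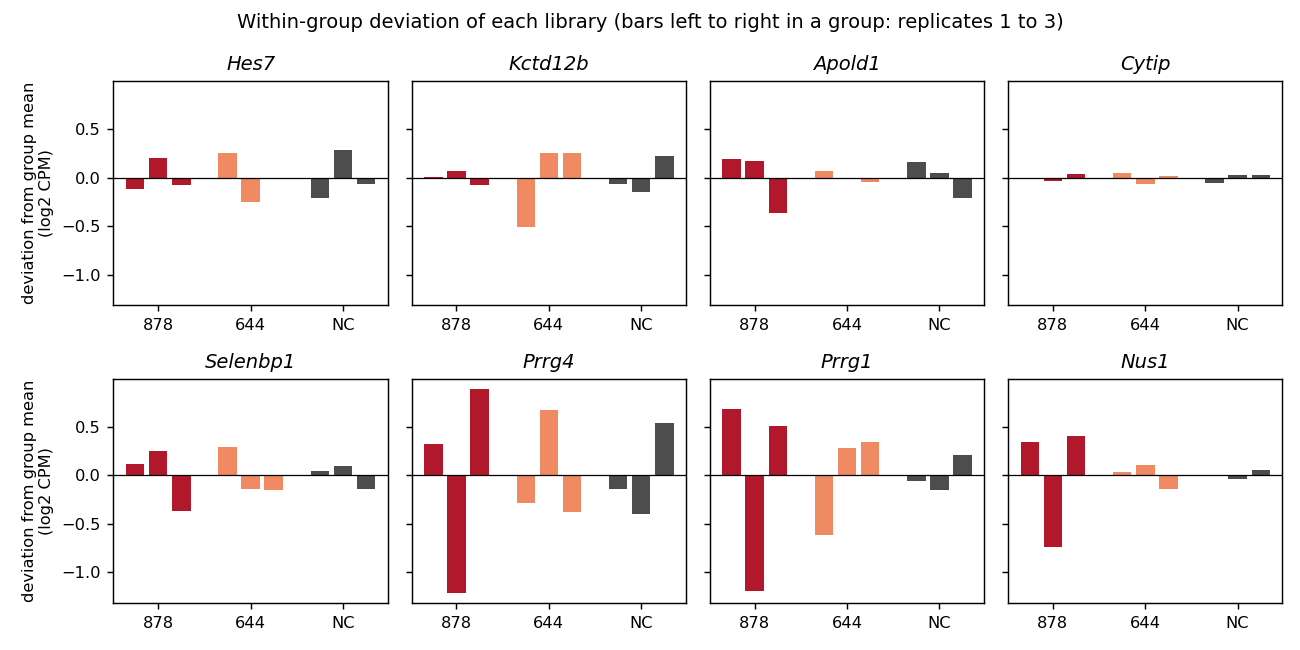
Deviation of each library from its group mean in log2 CPM (vertical axis) for the 6 genes, Prrg1 and Nus1, with siRNA 878, siRNA 644 and NC on the horizontal axis and 3 bars a group for replicates 1 to 3. In 878 replicate 2 the bars of Prrg4 (-1.21), Prrg1 (-1.19) and Nus1 (-0.74) point down, and Cytip is flat in all libraries.

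Over the 9 libraries the log2 CPM of pairs of the 6 genes correlated at r from 0.803 to 0.995, over points that all share the step between knockdown and NC libraries. Taking the group means away, Apold1 and Selenbp1 still moved alike (r = 0.844 over 9 deviations), while the other pairs ran from -0.73 for Prrg4 with Selenbp1 to 0.586 for Hes7 with Selenbp1. These are descriptions over 9 libraries that share the same depth and scaling. Those most like each gene over the 9 libraries were sought among 10210 genes of at least 1 average log2 CPM, without clone and predicted-gene names. For Hes7 they were H2-T24 (r = 0.9949), Nmi (0.9936) and Glrx (0.9925), and for Kctd12b Nr4a1 (0.9964), Kif4 (0.9950) and Shmt1 (0.9911). For Apold1 they were Lig1 (0.9966), Nuak2 (0.9950) and Selenbp1 (0.9946), and for Selenbp1 Apold1 (0.9946), Aurka (0.9940) and Rab7b (0.9928). For Cytip they were H2az1 (0.9958), Rfc5 (0.9955) and Sdc3 (0.9953), and for Prrg4 Fam20b (0.9922), Nup205 (0.9920) and Gnptab (0.9918). Each of the 6 had between 210 and 360 genes with r over 0.95, so the order among them rests on small differences. The like genes that are not among the 6 ranged in size, for example Sdc3 at -1.92 and -2.14 and Nmi at -0.61 and -0.58 with 878 and 644.

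RefSeq of GRCm38.p6 gives a promoter window, 250 bases before to 50 after the start site, for 5 of the 6 genes. The start sites are those of the promoter table and not always the outer end of the gene given above: that of Apold1 is the same and that of Prrg4 lies 22 bases inside, while those of Hes7, Selenbp1 and Cytip lie 1.55, 3.6 and 35.4 kb inside. The windows were searched on both strands for 11 short motifs. The 4 windows that held a match are printed because they show what genes that are low together do and do not share, with the matched letters in capitals, in the strand of the gene. They lie at chr11:69120203-69120502 (plus) for Hes7, chr6:134981751-134982050 (plus) for Apold1, chr2:58160073-58160372 (minus) for Cytip and chr3:94932833-94933132 (plus) for Selenbp1.
Hes7: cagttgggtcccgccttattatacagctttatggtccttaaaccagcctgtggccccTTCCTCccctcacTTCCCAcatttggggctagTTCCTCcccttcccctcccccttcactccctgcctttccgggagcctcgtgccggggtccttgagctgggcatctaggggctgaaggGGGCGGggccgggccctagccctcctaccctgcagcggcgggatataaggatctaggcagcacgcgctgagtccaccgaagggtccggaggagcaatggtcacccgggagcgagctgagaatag
Apold1: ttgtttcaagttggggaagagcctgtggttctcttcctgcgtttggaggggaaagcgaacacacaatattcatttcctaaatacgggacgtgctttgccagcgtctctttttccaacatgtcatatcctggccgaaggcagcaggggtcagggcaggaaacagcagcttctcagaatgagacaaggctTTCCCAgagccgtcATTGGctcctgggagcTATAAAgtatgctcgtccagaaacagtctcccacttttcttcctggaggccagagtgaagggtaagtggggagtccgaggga
Cytip: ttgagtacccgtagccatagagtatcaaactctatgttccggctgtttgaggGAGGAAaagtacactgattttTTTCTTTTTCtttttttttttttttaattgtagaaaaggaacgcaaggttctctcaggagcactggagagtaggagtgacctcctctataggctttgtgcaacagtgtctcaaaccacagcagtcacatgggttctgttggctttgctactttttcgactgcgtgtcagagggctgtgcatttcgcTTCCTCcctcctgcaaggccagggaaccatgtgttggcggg
Selenbp1: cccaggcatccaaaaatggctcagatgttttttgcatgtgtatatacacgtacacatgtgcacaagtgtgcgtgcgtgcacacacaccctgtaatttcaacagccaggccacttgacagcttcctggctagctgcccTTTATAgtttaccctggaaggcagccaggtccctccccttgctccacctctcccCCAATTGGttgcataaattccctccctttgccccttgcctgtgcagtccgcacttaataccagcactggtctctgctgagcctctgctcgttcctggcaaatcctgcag

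The windows of Apold1 and Selenbp1 each held a TATA box (TATAAA, in 7.03% of the promoters of tested genes) and a CCAAT box (CCAAT, in 39.5%). No other window held either. In Apold1 the TATA box began at base -32 and the CCAAT box, on the opposite strand, at -48. In Selenbp1 the TATA match was on the opposite strand at -113, and CCAAT stood on both strands at -59 and -56, overlapping by 2 bases. The Hes7 window held a GC box (GGGCGG, 63.3%) at -74, 2 PU.1 cores (GAGGAA, 26.6%) at -193 and -161 and an RBPJ core (TGGGAA, 23%) at -180. The last motif also stood in Apold1 at -62. Cytip held 2 PU.1 cores, at -198 and at 10 after the start, and an interferon-response core (GAAA, any 2 bases, GAAA, in 3.18%) at -177, within a run of T. No window held an AP-1 site (TGANTCA, in 4.98% of the promoters of tested genes), a CRE (TGACGTCA, 3.38%), an NBRE (AAAGGTCA, 0.865%), an NF-kB site (GGGA, any base, TTTCC, 0.39%) or an E-box (CACGTG, 10.4%), and Prrg4 held none of the 11. No motif was shared by more than 2 of the 5 windows. A match is only a match of letters. The GC content of the windows was 63% in Hes7, 53% in Selenbp1, 51.7% in Apold1, 49% in Prrg4 and 46% in Cytip, against a median of 60.7% in tested genes.

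Of all tested genes, 12.2% rose and 11.0% fell with both siRNAs (edgeR, adjusted p under 0.05 in each), and the lists that follow are read against these shares. With 878, 31.5% of tested genes were called, and with 644 31.6%. Single libraries moved these counts: 3696 genes with 878 became 2455 without NC replicate 1, and 3710 with 644 became 2343 without NC replicate 1, 2379 without 644 replicate 3 and 6004 without 878 replicate 2. Both comparisons share the NC libraries. The 12 lists name partners and relatives of the 6 genes and also markers of cell types. Of the 177 tested genes in these 12 lists, markers included, 42 (23.7%) moved the same way with both siRNAs, 19 up and 23 down. The share among all tested genes was 23.1%.

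Of 29 tested genes of the Notch pathway and of the Hes and Hey repressors, 5 rose with both siRNAs and 0 fell, with a median log2 fold change of 0.00 with 878 and 0.03 with 644. Psen2, a catalytic subunit of gamma-secretase, which cleaves Notch, rose by 0.59 with 878 and by 0.58 with 644 (edgeR adjusted p = 0.000545 and 0.000651). Tle1, a co-repressor of HES proteins, rose by 0.55 with 878 and 0.41 with 644 (adjusted p = 0.0123 and 0.042), but its call with 644 was lost without any 1 NC or 644 library or 878 replicate 1 (adjusted p = 0.0542 to 0.141) and that with 878 without NC replicate 2 or 3 (0.0529 and 0.056). Hes6 was at 0.14 and 0.28 (adjusted p = 0.816 and 0.581) and Hes1 had at most 9 counts in a library.

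Among 27 tested immediate early genes, the class to which Apold1 belongs in endothelial cells, 8 fell and 2 rose with both siRNAs, and the medians were -0.36 with 878 and -0.04 with 644. The NR4A nuclear receptors fell: Nr4a1 was at -2.05 with 878 and -2.25 with 644, and Nr4a2 at -1.93 with 878 and -2.70 with 644 (edgeR adjusted p at most 0.000242). Nr4a3 had 7 counts over the 878 libraries and 4 over the 644 libraries, against 108 in NC, a ratio of CPM of 0.0704 with 878 (exact 95% interval 0.0276 to 0.15) and 0.0391 with 644 (0.0105 to 0.103), where intervals cover counting error only. Fosl1, an AP-1 subunit, rose by 0.49 with 878 and 1.71 with 644 (adjusted p = 0.0222 and 3.71e-05), and Klf4 by 0.62 and 1.05 (adjusted p = 0.0416 and 0.00402). The 878 call of Fosl1 was lost without any 1 NC library (adjusted p = 0.0551 to 0.0666), and that of Klf4 without any 1 library other than 878 replicate 2 (0.0562 to 0.139).

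Both tested apolipoprotein L genes, the family whose domain APOLD1 carries, fell with both siRNAs. Apol9a was at -2.75 with 878 and -1.43 with 644 (edgeR adjusted p = 9.96e-05 and 0.00224) and Apol9b at -2.76 and -1.49 (adjusted p = 0.000457 and 0.00772). They are near-identical copies, so the split of reads between them is uncertain. Apol6 had at most 4 counts in a library. Endothelial markers summed to 151 to 166 CPM with 878, 159 to 169 CPM with 644 and 162 to 182 CPM in NC. Most of that sum was Flt1, a VEGF receptor, and Vwf, von Willebrand factor. Flt1 fell, at -0.59 with 878 and -0.46 with 644, and Vwf rose by 2.08 with 878 and 2.13 with 644 (edgeR adjusted p at most 0.0242), the Flt1 call with 644 being lost without NC replicate 1 or 3 or 644 replicate 1 or 3 (adjusted p = 0.0735 to 0.0921). Of 12 endothelial markers 4 were tested, of which 1 rose and 1 fell with both siRNAs. With each siRNA 2 were called lower and 1 higher, and the medians were -0.61 with 878 and -0.33 with 644. Several defining markers were at or near 0: Cdh5, Cldn5 and Tie1 had at most 2 counts in any library, Tek at most 3 and Kdr at most 8. Pecam1 was tested, with 2 to 6 counts in 878 libraries, 8 to 10 in 644 libraries and 9 to 13 in NC. It was at -1.47 with 878 (edgeR adjusted p = 0.0224) and -0.20 with 644 (adjusted p = 0.691), and the part of endothelial marker levels in the values of Apold1 was not tested.

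Of 16 tested genes of the KCTD family and the GABA-B receptor, 1 fell and 0 rose with both siRNAs, and the medians were -0.04 with 878 and -0.11 with 644. The one that fell was Kctd12, the paralog of Kctd12b, which averaged 30.6 ± 4.92 CPM with 878, 28.4 ± 3.92 CPM with 644 and 55.9 ± 8.17 CPM in NC (SD, n = 3 each). Its log2 fold change was -0.87 with 878 and -0.98 with 644 (edgeR adjusted p = 0.00341 and 0.002), smaller in size than that of Kctd12b in both. The receptor subunits that these proteins bind were hardly detected, with at most 6 counts of Gabbr1 and 1 of Gabbr2 in a library.

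Of 14 tested genes of the vitamin K cycle and Gla proteins, 4 rose and 1 fell, and the medians were 0.36 with 878 and 0.23 with 644. Bglap2, an osteocalcin gene, had 1026 counts over the 878 libraries, 1047 over the 644 libraries and 11 in NC, a ratio of CPM of 101 for both siRNAs (exact 95% intervals 56.4 to 204 with 878 and 56 to 202 with 644, counting error only). The NC libraries held 3, 8 and 0 counts, and the fitted log2 fold change, 6.63 with 878 and 6.60 with 644, was 7.86 and 7.83 without NC replicate 2 and 6.06 and 6.03 without NC replicate 3. Its near copy Bglap3 rose by 2.05 and 2.31, with the same doubt on the split of reads. F10, coagulation factor X, fell, at -1.19 with 878 and -1.98 with 644 (edgeR adjusted p = 0.00891 and 0.000851). The relatives of Prrg4 were not called: Prrg1 was at -0.66 and -0.81 (adjusted p = 0.264 and 0.177), Prrg2 at 0.73 and 0.31 (adjusted p = 0.0533 and 0.368), and Prrg3 had at most 1 count in a library. Prrg1 passed with 644 without 878 replicate 2 (edgeR adjusted p = 0.0173) or with only the 644 and NC groups fitted (0.0272), and Prrg2 passed with 878 without 878 replicate 3 or NC replicate 2 (adjusted p = 0.0266 and 0.0488) and under 5 other settings (0.00472 to 0.0489).

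Of 22 tested genes of cytohesins, ARF6 and beta2 integrin adhesion, the setting in which CYTIP acts, 3 rose and 3 fell, and the medians were -0.02 with 878 and 0.01 with 644. Itgb2, the beta2 integrin chain, fell, at -0.76 with 878 and -0.80 with 644 (edgeR adjusted p = 0.000457 and 0.000356). Grasp, a scaffold related to CYTIP, fell, at -0.70 and -0.79 (adjusted p = 0.0207 and 0.0119), as did the RAP1 effector Apbb1ip, at -0.36 and -0.32 (adjusted p = 0.0061 and 0.0101). The Grasp call with 878 was lost without 878 replicate 1 or NC replicate 2 (adjusted p = 0.0593 to 0.0664). Icam1, a ligand of beta2 integrins, rose by 0.41 and 0.38 (adjusted p = 0.0176 and 0.0245), calls that were lost without NC replicate 1 or 3, and with 644 also without 644 replicate 1 or 3 (adjusted p = 0.062 to 0.0891). Itgad, an alpha chain of the same integrins, had 35 counts over the 878 libraries, 36 over the 644 libraries and 3 in NC, a ratio of CPM of 12.7 for both (exact 95% intervals 4 to 64.4 and 4.01 to 64.4, counting error only). Its fitted log2 fold change, 3.50 with 878 and 3.51 with 644, was 4.33 and 4.34 without NC replicate 3, which held 2 of the 3 counts, and 2.96 and 2.97 without NC replicate 1. Arf1 rose by 0.23 and 0.21 (adjusted p = 0.0238 and 0.0395), which was lost without any 1 of several libraries, each NC library among them (adjusted p = 0.0546 to 0.151). The binding partner Cyth1 was at -0.23 with 878 (adjusted p = 0.171) and fell by 0.52 with 644 (adjusted p = 0.0107), and the hematopoietic cytohesin Cyth4 was at -0.04 and -0.06 (adjusted p = 0.859 and 0.778). Without 878 replicate 2, both were called lower with 878 (adjusted p = 0.0118 for Cyth1 and 0.0413 for Cyth4).

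Of 17 tested genes of sulfide and sulfur amino acid handling, 1 rose and 1 fell, and the medians were -0.06 with 878 and 0.02 with 644. Cdo1, cysteine dioxygenase, rose by 1.46 with 878 and 1.18 with 644 (edgeR adjusted p = 0.00994 and 0.0278), the call with 644 being lost without any 1 of the 644 libraries or NC replicate 1 or 2 (adjusted p = 0.0532 to 0.0883). Selenbp2 averaged 2.13 ± 0.604 CPM with 878, 1.88 ± 0.902 CPM with 644 and 4.56 ± 0.664 CPM in NC (SD, n = 3 each). It fell, by a log2 fold change of -1.11 with 878 and -1.27 with 644 (adjusted p = 0.0361 and 0.0216), which was lost with both siRNAs without NC replicate 1 or 3, and with 878 also without NC replicate 2 or 878 replicate 1 or 3 (adjusted p = 0.0518 to 0.122). It shares sequence with Selenbp1 as given above. Of 22 tested selenoproteins and genes of selenocysteine synthesis, which SELENBP1 is not one of, 3 rose and 3 fell, and the medians were 0.11 and -0.04. Selenos and Selenok, which act in ER-associated degradation, rose by 1.67 and 0.93 with 878 and by 1.52 and 0.94 with 644 (adjusted p at most 5.72e-05). Selenow rose by 0.81 and 0.74 (adjusted p = 0.0112 and 0.0174), lost with both without NC replicate 3 and with 644 also without NC replicate 1 or 644 replicate 1 or 3 (0.0502 to 0.0712). Selenoh, Selenon and Sephs2 fell, at -0.59, -0.59 and -0.27 with 878 and -0.59, -0.37 and -0.52 with 644 (adjusted p at most 0.0121), the Sephs2 call with 878 being lost without NC replicate 2 (0.0526).

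Of the 20 microglia and macrophage markers, 3 fell and 0 rose with both siRNAs, and the medians were 0.10 with 878 and -0.05 with 644. Cx3cr1, the fractalkine receptor, was at -3.00 and -2.65, Cd14, a co-receptor of lipopolysaccharide, at -1.33 and -1.35 and Aif1, which encodes IBA1, at -1.16 and -0.62 (edgeR adjusted p at most 0.0412). The Aif1 call with 644 was lost without any 1 library other than 878 replicate 2 or 3 (adjusted p = 0.0535 to 0.117). Of the 5 tested markers of neurons, astrocytes and oligodendrocytes, 0 rose and 0 fell with both. With 878, 2 were called lower and 0 higher, and with 644, 0 lower and 1 higher. Their medians were -0.24 with 878 and -0.09 with 644.

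**Figure D4:**
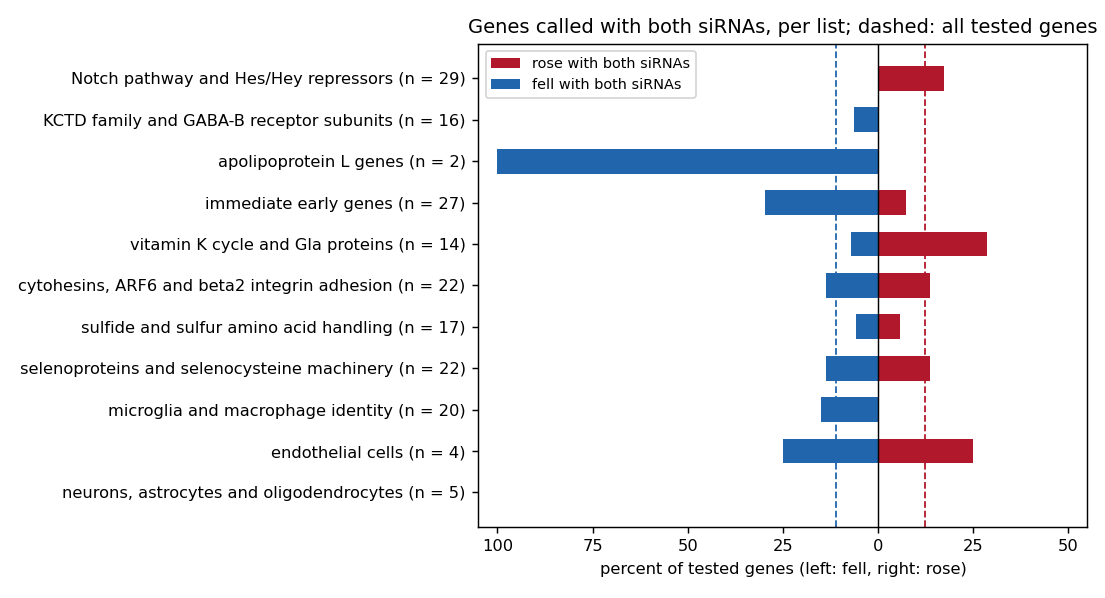
Percent of the tested genes of each list that rose (right of 0) or fell (left of 0) with both siRNAs by edgeR at an adjusted p under 0.05, with the number tested in brackets. Dashed lines mark the shares over all tested genes, 12.2% higher and 11.0% lower. Immediate early genes reach 8 of 27 to the left, and the 2 apolipoprotein L genes fill the left side with only 2 genes tested.

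Position was not used to pick the genes. Of the 12 nearest tested neighbours, 1 on each side of each gene, 3 moved the same way with both siRNAs, against 23.1% of all tested genes. Per1, a circadian clock repressor 8.94 kb from Hes7, averaged 34.6 ± 2.4 CPM with 878, 37.2 ± 1.49 CPM with 644 and 82.1 ± 2.42 CPM in NC (SD, n = 3 each). It fell, at -1.25 with 878 and -1.14 with 644 on the log2 scale (edgeR adjusted p = 1.35e-05 and 2.03e-05), while Aloxe3, 1.36 kb from Hes7 on the other side, was at -1.03 and -0.13 (adjusted p = 0.345 and 0.902). Gpd2, mitochondrial glycerol phosphate dehydrogenase, 758 kb from Cytip, fell, at -0.77 and -0.84 (adjusted p = 0.0056 and 0.00361). Nbdy, 24.8 kb from Kctd12b, rose by 0.30 and 0.26 (adjusted p = 0.0308 and 0.0492), calls that were lost without any 1 NC library, and without several knockdown libraries (adjusted p = 0.0568 to 0.161). On the other side of Cytip, Acvr1 was at 0.53 with 878 and rose by 0.70 with 644 (adjusted p = 0.0773 and 0.0271), and beside Selenbp1, Rfx5 was at -0.40 with 878 and fell by 0.56 with 644 (adjusted p = 0.0678 and 0.0196). The 644 call of Acvr1 was lost without 644 replicate 2 or 3 or any 1 NC library (adjusted p = 0.0602 to 0.0908), and that of Rfx5 without 644 replicate 1 or 3 or NC replicate 1 or 3 (0.0599 to 0.0759). Ubqln2, Cdkn1b, Ddx47, Qser1, Ccdc73 and Psmb4 were not called with either siRNA, at -0.39 to 0.14 with 878 and -0.69 to 0.17 with 644. Without 878 replicate 2, Acvr1 was called with 878 (adjusted p = 0.00769), and Qser1 and Cdkn1b with 644 (0.0107 and 0.0152).

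**Figure D5:**
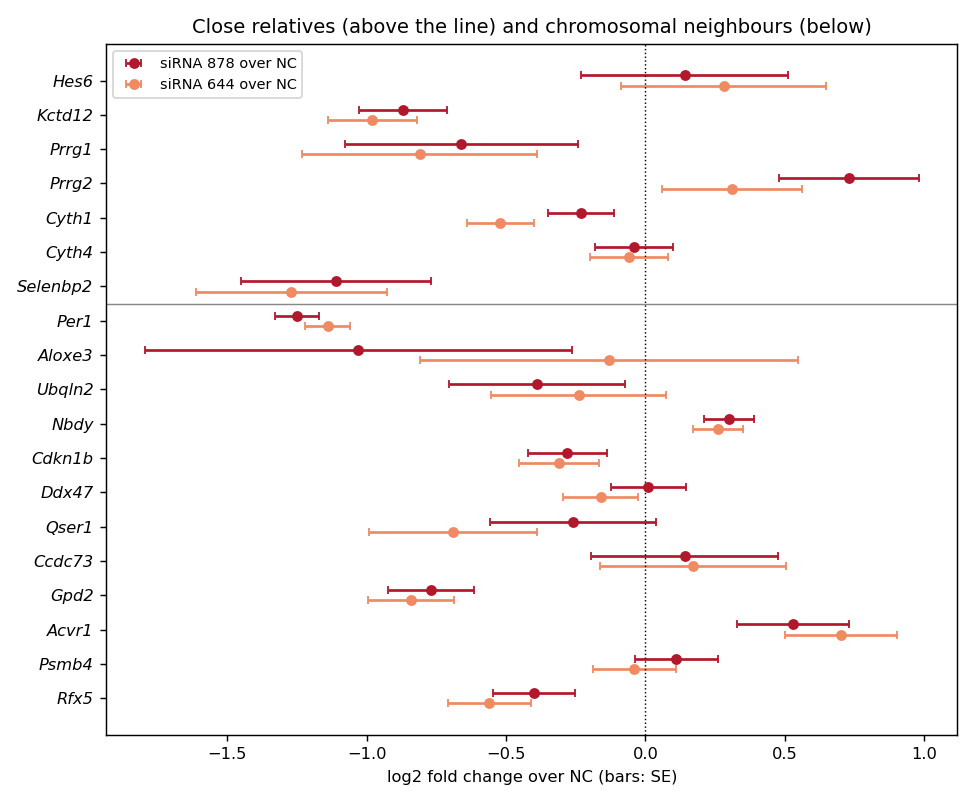
Log2 fold change over NC (horizontal axis) with siRNA 878 (red, upper point) and siRNA 644 (orange, lower point) for 7 close relatives and partners of the 6 genes, above the line, and for their 12 nearest tested neighbours, below it. Bars are standard errors from edgeR, 3 libraries per group. Kctd12, Selenbp2, Per1 and Gpd2 fell with both siRNAs by edgeR at an adjusted p under 0.05. Others, such as Prrg1 and Qser1, also lie left of 0 with both but were not called with both.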

How the data were processed

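Per the labels' protocols, RNA was extracted with TRIzol and 2 µg went into mRNA libraries. The authors deposited unrounded estimated counts (37.4% of nonzero values were not whole within 1e-09) and FPKM for each gene and library, with their own log2 fold changes and q-values, per the file headers. Bowtie2 2.4.5, DESeq2 1.34.0 and mm39 stand in the submitters' processing notes. How reads were assigned to genes, the annotation, gene lengths and strand setting were not stated in the labels. Not used were 9 TPM columns, 9 columns of averages and 3 of unadjusted p-values. Positions are as the table gives them. Since 73.7% of matched genes, and 5 of the 6 described, have identical positions in RefSeq of GRCm38.p6, their build is uncertain.

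Counts were rounded and filtered (filterByExpr, minimum count 10, total 15), which kept at least 99.96% of counts. All 9 samples entered 1 edgeR 4.0.16 fit (R 4.3.3) by group alone, with TMM scaling (0.898 to 1.04), and contrasts were tested by quasi-likelihood F-tests adjusted by Benjamini-Hochberg over 11739 genes, with calls under 0.05. A gene rose or fell with both siRNAs when called with each in 1 direction. Alternatives were DESeq2 1.42.0, RLE, unscaled library sizes, no filter or 1 CPM in 3 samples, fits of the compared groups alone, a replicate block, limma 3.58.1 on log2(FPKM + 1) and log2(FPKM + 0.1), and each library left out. Offsets for GC content and length (98.5% of tested genes had both) were chosen after seeing the data. Sequence stretches and lengths came from GENCODE transcripts of GRCm38. Log2 CPM for correlations and spread used a prior count of 2.

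The genes, lists, tests and naming rule were chosen with earlier results of these data known. Named were the 6 genes, up to 3 genes per list and direction with the largest smaller change, close relatives, nearest tested neighbours, the 3 genes most alike, the 2 next in the order of falls, and Nus1, Lcn2 and Slc22a17. Prrg3, Gabbr1, Gabbr2, Cdh5, Cldn5, Tie1, Tek, Kdr and Pecam1 were added after their values were seen. Results for a few genes within the naming rule are not reported here.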

Additional observations from a re-analysis of the deposited data

Results flagged for a closer look

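Of the genes named beside the 6, Apol9a and Fosl1 differed between the siRNAs by the test of that difference. Apol9a was lower with 878 than with 644 by -1.33 on the log2 scale (edgeR adjusted p = 0.0451), at 3.93 CPM with 878, 9.82 CPM with 644 and 26.4 CPM in NC. It was called under 9 of 19 alternatives (adjusted p = 7.77e-05 to 0.191), and with 1 library left out only without 878 replicate 2. Its near copy Apol9b was at -1.27 and not called (adjusted p = 0.113). Fosl1 was lower with 878 than with 644 by -1.22 (edgeR adjusted p = 0.00517), at 9.71 CPM with 878, 22.5 CPM with 644 and 6.89 CPM in NC. It was called under 16 of 19 alternatives (adjusted p = 4.26e-13 to 0.076).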

How the results depend on the processing

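None of the 6 genes was called between 878 and 644 under any alternative except without 878 replicate 2, which gave 1 (0 to 1 over the libraries left out). Over all genes that comparison called 177, against 647 with DESeq2, 298 with library sizes alone, 5 with only the 2 groups fitted, 370 and 323 with log2(FPKM + 1) and log2(FPKM + 0.1), 1268 with GC and length offsets, and 12 to 2072 with 1 library left out. Leaving out 1 library gave 2455 to 4824 genes for 878 against NC and 2343 to 6004 for 644 against NC. Genes of the lists that moved with both siRNAs numbered 42, against 66 with GC and length offsets and 28 to 58 with 1 library left out; neighbours numbered 3, against 5 and 2 to 4. Correlations of same-numbered deviations ran from -0.686 to 0.548. With 3 libraries per group they cannot settle whether the replicate numbers pair the samples. With the replicate block the counts were 14 between the siRNAs, 2886 for 878, 2853 for 644, 33 list genes, 2 neighbours and 0 of the 6.

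Beside the single libraries named above, other alternatives ended 52 calls against NC of named genes and made 18. The 644 and 878 calls of Arf1 and Nbdy, the 878 call of Klf4 and the 644 call of Tle1 were each lost under 6 alternatives, and the 644 call of Acvr1 under 4. The block ended 13 calls (adjusted p = 0.0501 to 0.114), library sizes alone and each FPKM scale 8, no filter 4, fits of only the 2 groups 3 and RLE 1. The offsets ended 7, among them both of Apbb1ip (0.415 and 0.569), and made 7. Calls made under more than 1 alternative were those of Prrg2, Cyth1 and Rfx5 with 878 and Qser1 with 644.

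Some small values changed sign. Prrg4 between the siRNAs was at -0.02 and -0.11 with log2(FPKM + 1) and log2(FPKM + 0.1) and at -0.27 to 0.72 with 1 library left out, and Kctd12b at -0.02 to 0.34. With 878 against NC, Hes6 was at -0.01 and -0.05 on the same FPKM scales, -0.09 with offsets and -0.41 to 0.37 with 1 library left out; Ddx47 at -0.08 with library sizes alone, -0.07 on both FPKM scales and -0.11 to 0.08; Psmb4 at -0.02 with offsets and -0.04 to 0.21. With 1 library left out, Cyth4 ran from -0.22 to 0.07, Qser1 from -0.51 to 0.03 and Ccdc73 from -0.26 to 0.37 with 878, and Psmb4 from -0.16 to 0.06, Aloxe3 from -1.08 to 0.43 and Ccdc73 from -0.01 to 0.29 with 644. The cause was not tested. Against NC none of the 6 genes changed sign under any alternative, which follows from their choice for large falls. The scale of log2(FPKM + 1) shrank the least abundant, Kctd12b, to -1.02 with 878 and -1.05 with 644. Counts of 8 to 45 per knockdown library limit Hes7, Kctd12b, Apold1 and Prrg4.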
